A study of Mus musculus with 48 samples.

Results

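Cubilin (Cubn) and 5 genes that work with it in apical endocytosis and cobalamin transport (Amn, Lrp2, Dab2, Tcn2 and Cd320) were followed in mice 9 days after Roux-en-Y gastric bypass (RYGB) or sham surgery. The 6 genes form a fixed list of names that was chosen by RYGB and sham values in the intestinal segments, so those values are given as a description without a test. All 6 of 6 genes were found, among 15541 genes listed in any of 6 tissue tables, and they made up 20 rows, 1 for each gene in each tissue where it was listed. RYGB joins a small stomach pouch to the small intestine so that food passes by most of the stomach and the duodenum, whereas the sham operation leaves the route of food as it was. The mice were male C57Bl6 with diet-induced obesity on a high fat diet, and after either surgery they received a liquid elemental diet for 9 days and were fasted before tissue was taken at 10am. Their age, and the intestinal limb that supplied the jejunal villi of the RYGB group, are not given in the sources used here.

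RNA of 48 libraries was sequenced with a stranded mRNA kit. The villi, which were scraped from the intestine after ice-cold EDTA, gave 24 libraries, with 3 RYGB and 4 sham libraries of the duodenum, 3 and 4 of the jejunum, and 5 and 5 of the ileum. Liver, subcutaneous white adipose tissue (WAT) and gastrocnemius muscle had 4 RYGB and 4 sham libraries each. Each value is a CPM, a count scaled to the same total in every library. The listed CPM of a library summed to between 925122 and 998777, and its total count is unknown. The labels number the libraries but do not say that each came from another mouse, so the spread between them may in part be technical. In bulk tissue, fewer cells of a type and less RNA per cell cannot be told apart.

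Cubilin is a very large protein on the outer face of the apical membrane, and it has no membrane anchor of its own. Amnionless, the product of Amn, is the small membrane protein that carries cubilin to the surface, and together they form cubam, the receptor for the complex of vitamin B12 (cobalamin) and intrinsic factor in the distal small intestine. Megalin (Lrp2) is a giant endocytic receptor that acts beside cubilin in the kidney tubule, and Dab2 is the adaptor that links such receptors to clathrin. Transcobalamin (Tcn2) carries cobalamin through the blood, and Cd320 is the receptor that takes up transcobalamin with its cobalamin.

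The genes lie on 5 mouse chromosomes (GRCm38, GENCODE M21 gene models). Cubn spans chr2:13276338-13491813 on the minus strand, with 14935 exonic bases, and Lrp2 spans chr2:69424340-69586065 on the same strand, with 16701 exonic bases. Amn is a short gene at chr12:111271095-111276426 on the plus strand, with 1843 exonic bases. Dab2 lies at chr15:6299788-6440712 (plus strand), Tcn2 at chr11:3917192-3932159 (minus strand) and Cd320 at chr17:33843091-33849774 (plus strand). Because exonic length differs so much, levels of different genes were compared only as CPM per kb of exonic bases.

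The promoters of the pair that forms cubam are shown because Cubn and Amn meet in 1 receptor while their values differed in range, as described below. Both are RefSeq windows on GRCm38.p6 of 250 bases before to 50 bases after the start site, written 5′ to 3′ along the gene, and the capitals mark each CG dinucleotide. The window of Cubn is chr2:13491827-13492126 on the minus strand, and that of Amn is chr12:111270846-111271145 on the plus strand.
Cubn: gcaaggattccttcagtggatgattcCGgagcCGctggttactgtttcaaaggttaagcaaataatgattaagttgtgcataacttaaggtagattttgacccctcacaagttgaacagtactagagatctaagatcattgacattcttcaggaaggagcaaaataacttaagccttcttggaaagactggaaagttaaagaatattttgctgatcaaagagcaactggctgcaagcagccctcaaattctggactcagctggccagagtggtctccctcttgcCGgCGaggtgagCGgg
Amn: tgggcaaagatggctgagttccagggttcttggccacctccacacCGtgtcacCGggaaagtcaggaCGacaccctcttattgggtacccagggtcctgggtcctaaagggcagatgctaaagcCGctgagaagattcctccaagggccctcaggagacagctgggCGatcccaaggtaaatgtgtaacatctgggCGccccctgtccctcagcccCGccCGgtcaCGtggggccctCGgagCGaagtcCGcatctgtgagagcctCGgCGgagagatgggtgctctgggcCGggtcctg
The Cubn window held 5 CG dinucleotides and was 44.3% G or C, and the Amn window held 15 and was 62.3% G or C. Over 32851 promoter windows the median was 7 CG dinucleotides, with 38.0% of the windows below Cubn and 65.4% below Amn. Both strands were searched for motifs of 4 families of factors that are active in enterocytes. The GATA motif, written AGATAA, occurred in 11.2% of all windows. The CDX motif, written TTTATNG, occurred in 10.9%, and the partial HNF1 motif, written GTTAAT, in 7.1%. The HNF4 motif, written CAAAGTCCA, occurred in 0.475%. None of the 4 was found in the Cubn or the Amn window. Absence says only that these letters are not in the 300 bases shown. Lrp2 and Cd320 also had no match, and Dab2 had 1 match in each of its windows, a GATA match on the opposite strand in one and a partial HNF1 match in the other. No window was matched for Tcn2.

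Which of the 6 genes were listed depended on the tissue. Cubn, Amn and Tcn2 were listed in all 3 intestinal tables, whereas Dab2, Lrp2 and Cd320 were listed in none of them. Liver listed Dab2, Lrp2, Tcn2 and Cd320, WAT listed Cubn, Dab2, Tcn2 and Cd320, and muscle listed Dab2, Tcn2 and Cd320. No gene was listed with fewer libraries at or above 1 CPM than the smaller group of its table had, so an unlisted gene was under this limit or was left out for another reason. The partners that mark cubilin uptake in the kidney, Lrp2 and Dab2, thus have no values in the villi, where they may have been low. Nothing can be said of their response there.

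The labels of the segments were checked with position markers. Enterocyte markers were all listed (12 of 12) in the 3 segments. Pdx1, a duodenal transcription factor, was between 14.5 and 159.9 CPM in the duodenum, between 0.5 and 7.4 CPM in the jejunum and not listed in the ileum. Onecut2, another proximal factor, was between 130.0 and 382.1 CPM in the duodenum, and between 1.2 and 7.2 CPM in the RYGB group and 6.2 and 26.9 CPM in the sham group of the ileum. Markers of the ileum were mixed in the libraries labelled ileum. Fabp6, the ileal bile acid binding protein, was at only 0 to 22.9 CPM in the sham group and 0.1 to 50.5 CPM in the RYGB group. Slc10a2, the ileal bile acid transporter, was at 0.2 to 2.5 CPM and 1.6 to 53.7 CPM. The bile acid exporter subunit Slc51a was at 247.2 to 698.4 CPM and 426.8 to 643.6 CPM, against 223.2 to 264.2 CPM and 213.2 to 295.9 CPM in the jejunum. Slc51b was at 72.5 to 143.3 CPM and 139.2 to 238.3 CPM in the ileum. Osr2, a distal factor, was at 45.4 to 68.9 CPM and 22.2 to 67.8 CPM, against 16.2 to 36.4 CPM and 14.2 to 25.6 CPM in the jejunum. Gata4, a factor of the proximal and middle intestine, was at 105.0 to 183.2 CPM in the ileum libraries and at 122.0 to 239.1 CPM in the jejunum. The ileum is therefore named here by its label, and how far along the intestine it was taken is not given in the sources used here.

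Cubn was lower in every RYGB library than in every sham library of the jejunum. The sham group had 893.3, 342.2, 863.7 and 421.8 CPM, and the RYGB group had 37.8, 5 and 5.1 CPM. All 3 RYGB libraries were thus far below the lowest sham library, and RYGB replicate 1 was several times higher than the other two. The means were 630.25 ± 289 CPM (SD, n = 4) and 16.0 ± 18.9 CPM (SD, n = 3), and the sham mean was 39.5 times the RYGB mean, or 124.8 times without RYGB replicate 1. The difference on the log2(CPM + 1) scale was -5.69 ± 0.62 (SE). Over all genes tested in the jejunum, 12.5% had every RYGB library below every sham library, and since the gene was chosen on this contrast nothing is read from its place among them. RYGB replicate 2 was sequenced on another lane (L002) than the other 6 libraries (L001), and without it the difference was -5.23. Without RYGB replicate 1 the difference was -6.58. Among position markers of the jejunum, Slc51b alone had an adjusted limma p under 0.05, and it was higher in the RYGB group (log2 difference 0.90 ± 0.21, adjusted p = 0.0266). Slc10a2, Slc51a, Osr2, Pdx1, Gata4, Onecut2 and Fabp1 had log2 differences from -0.45 (Osr2) to 0.66 (Slc10a2), with adjusted p from 0.159 to 0.983.

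In the ileum Cubn was also lower in all RYGB libraries than in all sham libraries, but by less. The sham group had 1028.9, 1273.4, 806.4, 1686.9 and 1231.5 CPM, and the RYGB group had 546.3, 630.8, 531, 353.8 and 609.6 CPM. The highest RYGB library was below the lowest sham library. The means were 1205 ± 327 CPM and 534 ± 109 CPM (SD, n = 5 each), and the difference on the log2 scale was -1.16 ± 0.21 (SE). Among all genes of the ileum 6.92% were separated in this direction. All RYGB libraries of the ileum were on lane L001 and all sham libraries on L002 or L003, and the effect of the lane and that of the surgery cannot be told apart in this segment. Some position markers also differed between the groups of the ileum, while Fabp6, Slc51a, Osr2 and Gata4 had adjusted limma p-values from 0.183 to 0.76. Onecut2 was lower in the RYGB group (log2 difference -1.91 ± 0.43, adjusted p = 0.0235), and Slc10a2 (2.30 ± 0.64, adjusted p = 0.0474), the bile acid exporter subunit Slc51b (0.74 ± 0.20, adjusted p = 0.0457) and Fabp1 (1.25 ± 0.33, adjusted p = 0.0391), a proximal fatty acid binding protein, were higher. Slc10a2 was under 1 CPM in some sham libraries (0.2 to 2.5 CPM), so it met the listing limit only with RYGB libraries. That favoured a rise in advance, and the rise of Slc10a2 is a description. The part of position in the jejunal and ileal Cubn values was not tested.

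In the duodenum the Cubn values of the groups overlapped. The RYGB group had 201.1, 82.1 and 90.4 CPM, and the sham group had 6.1, 30.9, 30.7 and 366.8 CPM. Sham replicate 4 was above every RYGB library and the other 3 sham libraries were below every RYGB library. The means were 125 ± 66.4 CPM (SD, n = 3) and 109 ± 173 CPM (SD, n = 4), and the log2 difference was 1.52 ± 1.11 (SE). It was 2.58 without sham replicate 4 and 0.68 without sham replicate 1.

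Sham replicate 4 of the duodenum stood apart in position markers as well as in Cubn. It had the lowest Pdx1 of the 7 libraries (14.5 CPM, against 47.3 to 159.9 CPM in the other sham libraries), the highest Osr2 (13.0 CPM, against 0 to 0.5 CPM), a factor of the distal intestine, and the highest Slc51a (546 CPM, against 119.9 to 225 CPM), a bile acid exporter. At the other end, sham replicate 1 had the highest Pdx1 (159.9 CPM) and the lowest Cubn (6.1 CPM). RYGB replicate 1, with the second highest Cubn of the duodenum, had Pdx1 at 16.9 CPM and Osr2 at 5.6 CPM. Not every library followed this order. RYGB replicate 3 had more Pdx1 (75.0 CPM) and more Cubn (90.4 CPM) than sham replicate 3 (47.3 and 30.7 CPM). Gata4, a proximal marker, was at 150.1 CPM in sham replicate 4 and lower in sham replicate 3 (136.0 CPM). The part of position in the Cubn values was not tested.

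**Figure D1:**
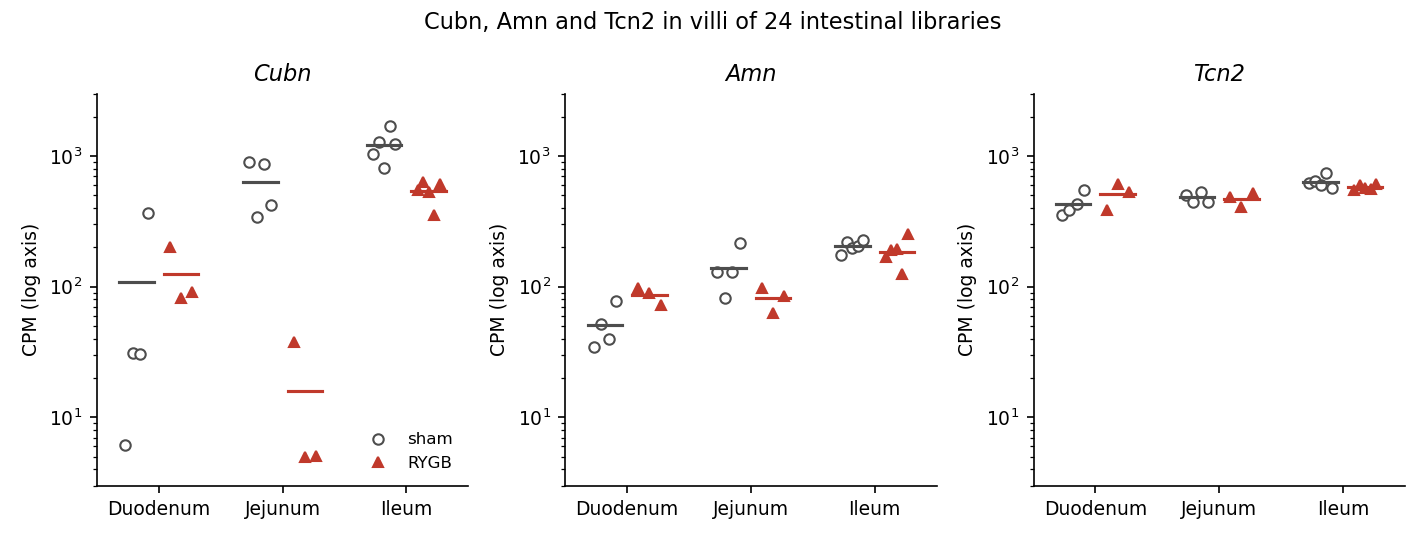
CPM of Cubn, Amn and Tcn2 (log axis) in each library of the duodenum, jejunum and ileum, with sham as open circles, RYGB as filled triangles and lines at the group means. For Cubn the 3 jejunal RYGB libraries lie between 5 and 37.8 CPM and all sham libraries of that segment at 342.2 CPM or above, whereas Tcn2 stays between 350 and 737 CPM in all 24 libraries.

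The order of the segments by Cubn differed between the groups, with the caution that each table was normalized separately. In the sham group the means rose from the duodenum to the jejunum and the ileum, but the jejunum (342.2 to 893.3 CPM) and the ileum (806.4 to 1686.9 CPM) overlapped, and sham replicate 4 of the duodenum (366.8 CPM) lay within the jejunal range. In the RYGB group the jejunum had the lowest values (5 to 37.8 CPM), the duodenum followed (82.1 to 201.1 CPM) and the ileum was highest (353.8 to 630.8 CPM), with no overlap between neighbours.

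The log2 difference of Amn had the same sign as that of Cubn in each segment, and its groups overlapped in all 3. In the jejunum Amn was at 128.5, 82.3, 129.6 and 215 CPM in the sham group and at 97.8, 63.3 and 84.3 CPM in the RYGB group, a log2 difference of -0.70 ± 0.29 (SE). Sham replicate 2 fell within the RYGB range, and the other 3 sham libraries were above it. In the ileum the sham libraries had 174.8, 217.6, 198.3, 203.1 and 225.4 CPM and the RYGB libraries 167.1, 189, 192.4, 125 and 253.2 CPM, a log2 difference of -0.17 ± 0.16 (SE), so that the RYGB range enclosed the sham range. In the duodenum the RYGB libraries had 97.4, 89.8 and 71.7 CPM and the sham libraries 34.7, 51.5, 39.7 and 78 CPM, a log2 difference of 0.81 ± 0.27 (SE), and the only sham library within the RYGB range was replicate 4.

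Tcn2 was nearly level across segments and groups. The means in the jejunum were 472 ± 59.1 CPM in the RYGB group (n = 3) and 481 ± 45.2 CPM in the sham group (n = 4), and the log2 difference was -0.03 ± 0.17 (SE). In the ileum they were 577 ± 26.3 and 633 ± 64.2 CPM (n = 5 each), with a log2 difference of -0.13 ± 0.10 (SE), and in the duodenum 508 ± 111 and 429 ± 86.3 CPM (n = 3 and 4), with a difference of 0.24 ± 0.22 (SE). The lowest value of Tcn2 in any intestinal library was 350 CPM and the highest was 737 CPM.

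Set side by side within a library and per length, the RNA levels of Cubn and Amn were closest to parity in the sham ileum. The ratio is of RNA and does not give the amounts of the 2 proteins. The ratio of Cubn to Amn CPM per kb had a median of 0.722 there, with a range of 0.502 to 1.02, and of 0.668 in the sham jejunum, with a range of 0.242 to 0.858. In the RYGB jejunum the ratio was 0.0477, 0.0097 and 0.0075 in the 3 libraries. The ratio was under 1 in 23 of all 24 intestinal libraries, the exception being sham replicate 4 of the ileum. In the RYGB ileum the ratio ran from 0.297 to 0.412, below every sham library of that segment. The duodenal ratios overlapped, at 0.113 to 0.255 in the RYGB group and 0.0217 to 0.580 in the sham group. As a level, Tcn2 was higher per kb than Cubn or Amn in every group, with means between 197 and 291 CPM per kb.

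**Figure D2:**
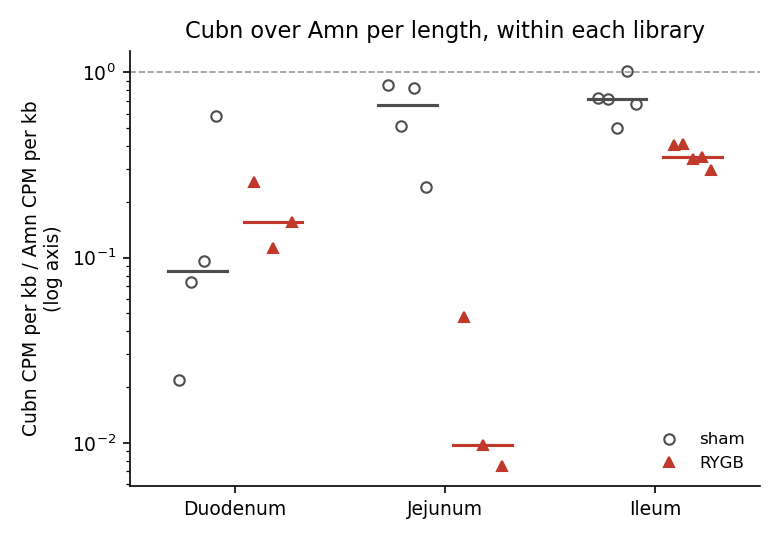
Ratio of Cubn to Amn, each as CPM per kb of exonic bases, within each intestinal library (log axis), with lines at the group medians and a dashed line where both would be equal. The jejunal RYGB libraries lie at 0.0477 or below and the sham libraries of the jejunum at 0.242 or above.

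Markers of cell types also differed between the groups, in directions that varied by list and segment. In the jejunum 6 of 6 listed lymphocyte genes were called lower in the RYGB group, against 5.13% of all genes. Their sums were 11.1 to 26.6 CPM against 49.9 to 74.4 CPM, and the B cell markers Cd79a, Cd79b and Ms4a1 were not listed. In the ileum 5 of 5 listed genes were called lower, against 4.42% of all genes. The ileal sums were 8.1 to 24.6 CPM against 32.8 to 80.4 CPM. Cd3d and Nkg7 in the jejunum, and Cd3e, Cd3g and Nkg7 in the ileum, met the listing limit only with sham libraries. That favoured their falls in advance, and those falls are a description. The macrophage list summed to 15.6 to 20.9 CPM against 5.9 to 15.6 CPM in the jejunum, where none of 5 listed genes was called, and Adgre1 and Cd68 were not listed. Among 8 goblet and Paneth cell genes 4 were called higher in the jejunum, Clca1, Lyz1, Mmp7 and Defa24, against 4.62% of all genes. The enterocyte list summed to 51277 to 79636 CPM in the RYGB jejunum and to 79570 to 100909 CPM in the sham jejunum, and 1 of its 12 genes was called lower (Apoa4, log2 difference -1.47 ± 0.36, adjusted p = 0.0337). In the ileum the macrophage list summed to 6.6 to 15.0 CPM in the RYGB group and 1.9 to 8.5 CPM in the sham group, and the enterocyte list to 71923 to 93690 CPM and 59399 to 85505 CPM. In the duodenum the lymphocyte sums were 56.4 to 133.5 CPM in the RYGB group and 19.3 to 62.8 CPM in the sham group, and the macrophage sums 16.1 to 38.5 CPM and 4.6 to 19.5 CPM. The duodenal sums of the crypt stem and proliferation list did not overlap, at 28.8 to 126.3 CPM in the RYGB group and 5.5 to 22.1 CPM in the sham group over the 4 of its 8 genes that were listed, which leave out Lgr5, and those of the goblet and Paneth cell list were 6349 to 9189 CPM and 2457 to 7784 CPM. The duodenal enterocyte sums were 46822 to 57694 CPM and 57045 to 70603 CPM, and no gene of these 5 lists was called in the duodenum. The part of these cell types in the Cubn values was not tested.

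In liver, WAT and muscle the listed members were tested, since the genes were chosen by intestinal values. Earlier results of these data were known at that choice, so the tests may not be wholly free of it. A gene was called when the limma p-value, adjusted by the Benjamini-Hochberg method over all genes tested in the tissue, was under 0.05 and the fold change was at least 1.5. Of these 3 tissues, only WAT had a called member, which was Dab2.

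Dab2 was significantly lower in WAT of the RYGB group. Its levels were 314.5, 338.9, 326.7 and 255.6 CPM in the sham group and 167, 189.3, 135.5 and 68.8 CPM in the RYGB group. No RYGB library reached the lowest sham library, and RYGB replicate 4 was the lowest of all. The means were 309 ± 36.9 and 140 ± 52.4 CPM (SD, n = 4 each), the log2 difference was -1.22 ± 0.29 (SE) and the adjusted p was 0.0131. The call was 1 of 4 listed members in a tissue where 24.1% of all genes were called and 9.23% of all genes were called lower, and where 15.0% of all genes had every RYGB library below every sham library, so 1 call among 4 is near the background of this tissue.

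WAT differed between the groups in many cell type markers, and Dab2 is known to be expressed by several of those cells. Of 11 macrophage genes 4 were lower, Adgre1 (42.6 to 138.9 against 151.6 to 348.7 CPM), Cd68, Fcgr1 and Mrc1, and 1 was higher (Cx3cr1), with sums of 2024 to 2905 CPM against 2249 to 3969 CPM. Of 12 endothelial genes 10 were lower, such as Cdh5 (256.2 to 457.3 against 613.7 to 1103.1 CPM), and 1 was higher (Prox1), with sums of 1406 to 2133 CPM against 2567 to 4212 CPM. The sham mean of Prox1 was 0.52 CPM, so the gene was listed only through its RYGB libraries, and its rise is a description. Of 8 adipocyte genes 2 were lower (Plin4 and Lep), with sums of 8683 to 15972 CPM against 18043 to 25880 CPM. Of 10 fibroblast and smooth muscle genes 2 were lower (Pdgfrb and Acta2) and 1 was higher (Des), with sums of 1803 to 6084 CPM against 4673 to 16178 CPM. All 9 lymphocyte genes were higher, with sums of 1042 to 3199 CPM against 122.0 to 189.5 CPM. Of these, Cd3d, Cd3g and Cd79a were under 1 CPM in some sham libraries and met the listing limit only with RYGB libraries. That favoured their rises in advance, and those rises are a description. None of the defining markers was missing from the table, and the part of these cells in the Dab2 value was not tested.

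The other 3 members listed in WAT did not pass the test. Cubn was barely detected, at 1.6, 1.3, 1.7 and 1.5 CPM in the sham group and 2.8, 1.7, 2.9 and 6.8 CPM in the RYGB group, a log2 difference of 0.74 ± 0.29 (SE) with an adjusted p of 0.0723. RYGB replicate 2 matched the highest sham library, and without it the difference was 0.95 and passed, with an adjusted p of 0.033. Tcn2 was at 134.1, 135.2, 209.2 and 145.2 CPM in the sham group and 135.5, 143.1, 86.4 and 87.5 CPM in the RYGB group (log2 difference -0.47 ± 0.22, adjusted p = 0.108), with 2 RYGB libraries below the sham range and 2 within it. Cd320 was at 12 to 16.3 CPM in the sham group and 8.5 to 16.3 CPM in the RYGB group (log2 difference 0.04 ± 0.21, adjusted p = 0.891), and the interval of this difference ran from -0.43 to 0.51.

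In liver 0 of 4 listed members passed the limma test, and Dab2 alone had an unadjusted p under 0.05. Over all liver genes 7.08% were called and 5.79% were called higher, and 3181 of 11807 had an unadjusted p under 0.05. Dab2 was at 13.4, 25.5, 22.3 and 32.7 CPM in the sham group and 28.2, 33.8, 36.1 and 32.3 CPM in the RYGB group, and 1 sham library lay within the RYGB range. The log2 difference was 0.52 ± 0.22 (SE), with an adjusted p of 0.157. Lrp2 was near the limit of detection, at 1, 4.8, 0.9 and 1.9 CPM in the sham group and 1, 0.4, 1.1 and 1.5 CPM in the RYGB group, so the log2 difference of -0.53 ± 0.33 (adjusted p = 0.331) rested on sham replicate 2, and it was -0.18 without that library. Tcn2 differed by 0.09 ± 0.11 (means 117 ± 5.69 and 110.1 ± 14.1 CPM in the RYGB and sham groups, adjusted p = 0.627) and Cd320 by 0.13 ± 0.18 (4.33 ± 1.40 and 3.78 ± 0.33 CPM, adjusted p = 0.673). Their intervals ran from -0.16 to 0.34 and from -0.26 to 0.52.

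In muscle 0 of 3 listed members passed the limma test and none had an unadjusted p under 0.05. The share called over all genes was 0.0%, and 1746 of 11966 genes had an unadjusted p under 0.05. Tcn2 was at 17.4, 18.6, 18 and 14.7 CPM in the RYGB group and 12, 12.8, 18.3 and 12.9 CPM in the sham group, and all but 1 sham library lay below the RYGB range (log2 difference 0.29 ± 0.14, adjusted p = 0.373). Dab2 (0.13 ± 0.17, adjusted p = 0.77) and Cd320 (-0.10 ± 0.13, adjusted p = 0.775) overlapped between the groups.

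**Figure D3:**
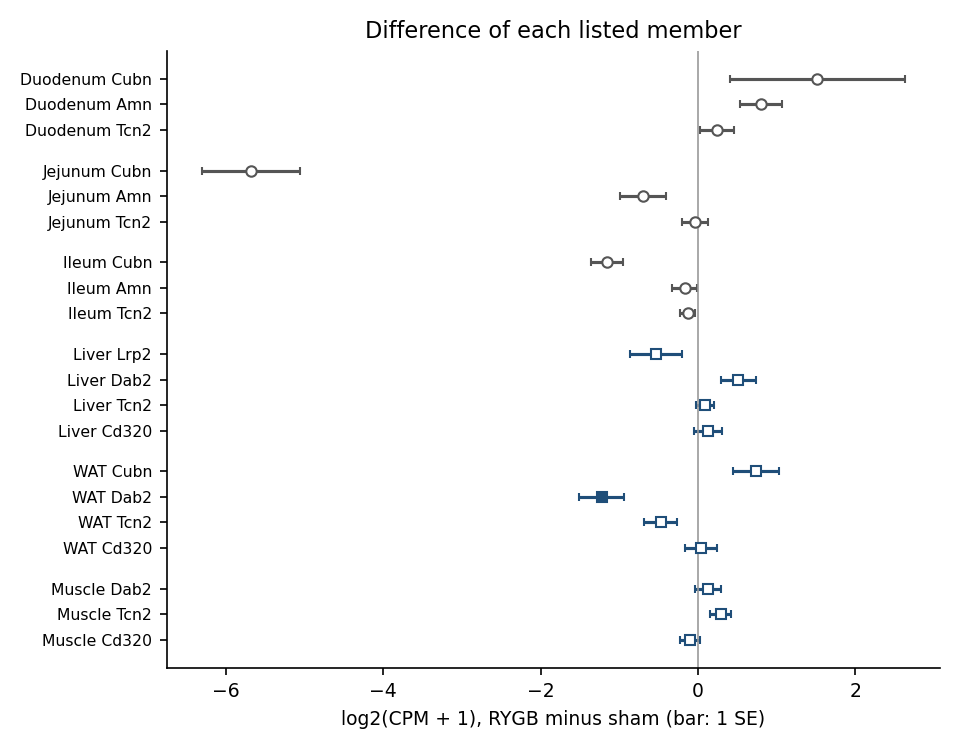
Difference between RYGB and sham on the log2(CPM + 1) scale for each listed member in each tissue, with bars of 1 SE. Circles mark the intestinal segments, which were not tested, squares mark tested tissues, and the filled square is the 1 call, Dab2 in WAT at -1.22.

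**Figure D4:**
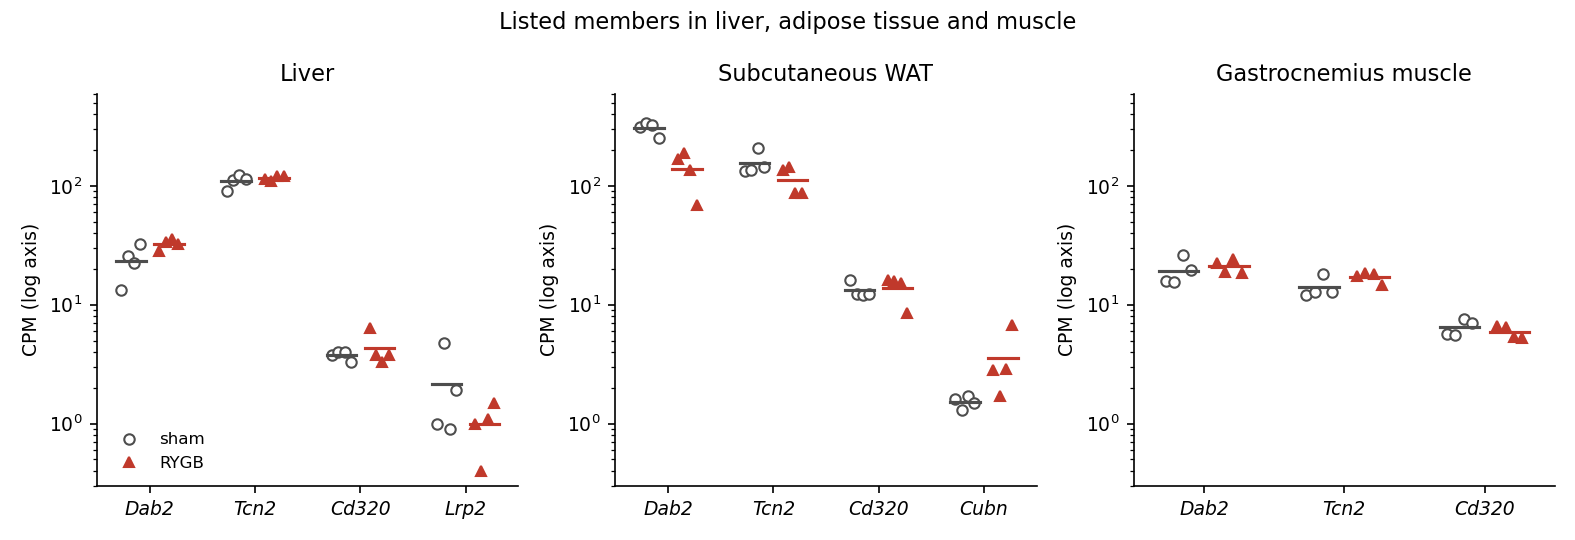
CPM of the listed members (log axis) in each library of liver, subcutaneous WAT and gastrocnemius muscle, with sham as open circles, RYGB as filled triangles and lines at the group means. Only the Dab2 values of WAT separate the groups, with RYGB at 189.3 CPM or below and sham at 255.6 CPM or above.

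The machinery around the receptor was examined with 88 further genes in 5 lists: intracellular cobalamin handling, partners and ligands of the receptors, clathrin adaptors and coat, sorting and recycling endosomes, and lysosomes. Internalized cubam passes through clathrin-coated pits to endosomes, from which it returns to the surface, while its cargo goes on to lysosomes. These genes were tested in all tissues. The median log2 difference of all genes was 0.124 in the duodenum, 0.13 in liver and 0.105 in WAT, and nearer to 0 in the jejunum (-0.044), the ileum (-0.093) and muscle (0.052).

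In the jejunum 5 of 77 tested pathway genes were called, 3 higher and 2 lower, which is 6.49% against 9.75% of all genes (4.62% higher and 5.13% lower). Lgmn, a lysosomal asparaginyl endopeptidase, rose from 25.6 ± 10.6 to 84.0 ± 18.2 CPM (log2 difference 1.73 ± 0.29, adjusted p = 0.00595). Abcc1, an export pump that moves cobalamin out of cells, rose from 0.725 ± 0.299 to 3.07 ± 1.63 CPM (1.18 ± 0.28, adjusted p = 0.0277), and Myo6, the motor that moves apical endocytic vesicles inward, rose from 253 ± 40.6 to 436 ± 86.7 CPM (0.78 ± 0.20, adjusted p = 0.039). The sham mean of Abcc1 was under 1 CPM, so the gene met the listing limit only with RYGB libraries. That favoured a rise in advance, and the rise of Abcc1 is a description. The call of Abcc1 was lost without RYGB replicate 2, sham replicate 1 or sham replicate 4 (adjusted p from 0.0696 to 0.0704), and that of Myo6 without any library other than RYGB replicate 1 (adjusted p from 0.0613 to 0.138). Lgmn kept its call without any 1 library.

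The falls in the jejunum were Mcoln3 and Slc46a1. Mcoln3, an endosomal cation channel, fell from 34.8 ± 20.5 to 5.13 ± 1.83 CPM (-2.38 ± 0.44, adjusted p = 0.00954). Slc46a1, the proton-coupled folate transporter of the apical membrane, fell from 372 ± 82.0 to 145 ± 31.2 CPM (-1.35 ± 0.22, adjusted p = 0.00595). Both kept their calls without any 1 library. By list, 1 of 10 cobalamin genes, 1 of 9 partners and ligands, 1 of 20 clathrin genes, 0 of 18 endosome genes (3 with an unadjusted p under 0.05) and 2 of 20 lysosome genes were called. The call in the list of partners and ligands was Slc46a1, a folate transporter that was counted there, and no other gene of that list was called. Over all genes of the jejunum 2667 of 10854 had an unadjusted p under 0.05. The median log2 difference over the 77 genes was 0.105.

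In the ileum 1 of 78 pathway genes was called, against 6.05% of all genes (4.42% lower). Mtr, the cobalamin-dependent methionine synthase, fell from 2.20 ± 0.745 to 0.98 ± 0.377 CPM (log2 difference -0.68 ± 0.19, adjusted p = 0.0493), and the groups overlapped. The RYGB mean was under 1 CPM, so Mtr met the listing limit only with sham libraries, which favoured a fall in advance. The call was lost without any 1 library other than RYGB replicate 4 or sham replicate 4 (adjusted p from 0.0605 to 0.112). The median difference over the lists was 0.049, and 16 of the 78 genes had an unadjusted p under 0.05. Over all genes of the ileum 2842 of 10735 did.

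In the duodenum 0 of 77 pathway genes passed the limma test, 11 had an unadjusted p under 0.05, and 0.00922% of all genes were called, which is 1 gene of 10850. Over all genes of the duodenum 2040 of 10850 had an unadjusted p under 0.05. Without sham replicate 4, the library that stood apart, Ctsl, a lysosomal protease, was called lower (log2 difference -1.26, adjusted p = 0.0286), as were 757 genes in all in either direction.

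In liver 6 of 83 pathway genes were called and all 6 were higher, which is 7.23% against 7.08% of all genes. Lipoprotein lipase (Lpl), a ligand of megalin, rose from 30.2 ± 4.63 to 92.5 ± 23.3 CPM (log2 difference 1.56 ± 0.19, adjusted p = 0.00185), Abcc1 from 3.05 ± 0.777 to 9.03 ± 3.28 CPM (1.28 ± 0.23, adjusted p = 0.0117) and Lgmn from 89.9 ± 22.1 to 167 ± 50.9 CPM (0.88 ± 0.23, adjusted p = 0.0411). The call of Lgmn was lost without any 1 library other than RYGB replicates 1 and 4 (adjusted p from 0.0583 to 0.105). Of the 6 calls 4 were lysosome genes, among 19 tested. The macrophage list, whose cells are rich in lysosomes, summed to 814 to 2056 CPM in the RYGB group and 394 to 657 CPM in the sham group of liver, with 3 of 11 genes called higher, and its part was not tested.

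In WAT 14 of 82 pathway genes were called, 4 higher and 10 lower (17.1% against 24.1% of all genes, with 14.9% higher). The largest rises were Mcoln3, from 0.4 ± 0.294 to 6.58 ± 3.97 CPM (2.33 ± 0.32, adjusted p = 0.0017), the clathrin-associated actin regulator Hip1r, from 32.6 ± 2.11 to 107 ± 40.1 CPM (1.62 ± 0.23, adjusted p = 0.00209), and the recycling protein Rab11fip1 (1.15 ± 0.33, adjusted p = 0.0262). The sham mean of Mcoln3 was under 1 CPM, so the gene was listed only through its RYGB libraries. Its direction was thus set in advance, and its rise is a description. The largest falls were Ctsl, from 970 ± 293 to 417 ± 117 CPM (-1.21 ± 0.29, adjusted p = 0.0141), Lgmn, from 362 ± 68.8 to 192 ± 43.3 CPM (-0.92 ± 0.19, adjusted p = 0.00848), and Rab11fip5 (-0.91 ± 0.20, adjusted p = 0.00994). None of 11 cobalamin handling genes was called in WAT, none of them with an unadjusted p under 0.05, against 6685 of 13379 genes in all. The call of Rab11fip1 was lost without RYGB replicate 3 or any of sham replicates 1, 2 and 3 (adjusted p from 0.0575 to 0.0617). In muscle 0 of 77 genes passed the limma test and 14 had an unadjusted p under 0.05, against 1746 of 11966 genes in all.

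**Figure D5:**
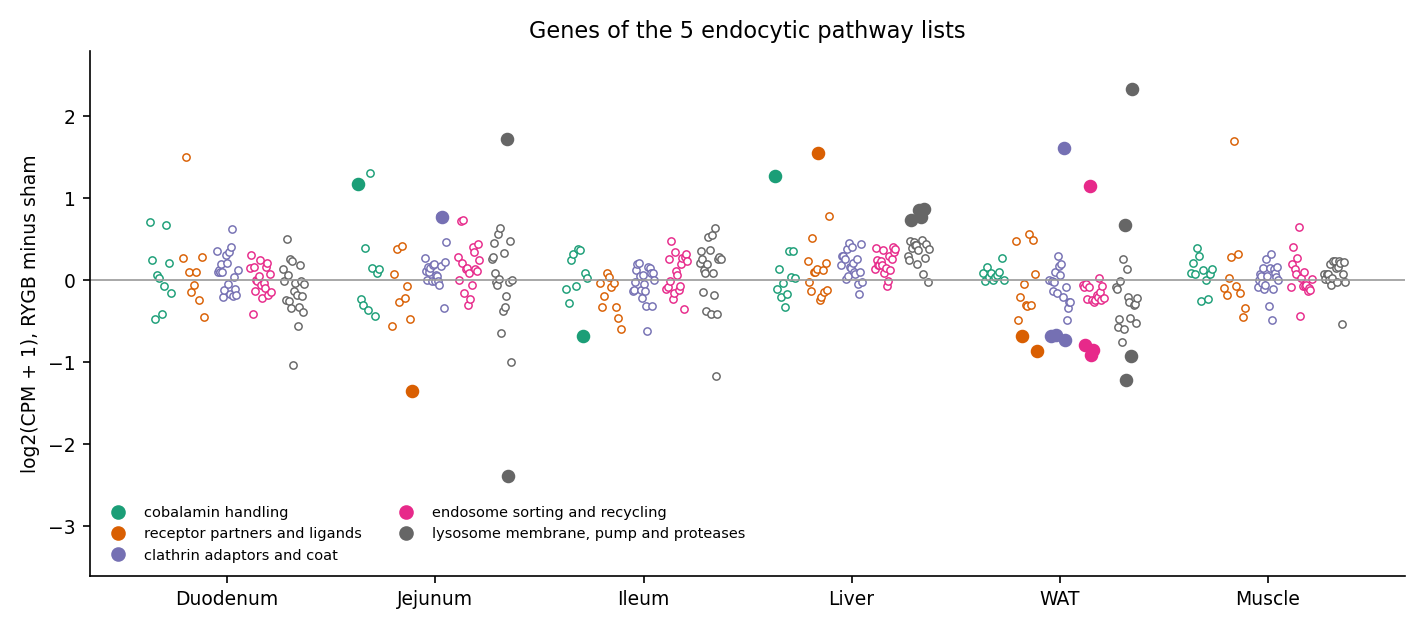
Difference between RYGB and sham on the log2(CPM + 1) scale for every tested gene of the 5 pathway lists in each tissue, coloured by list, with called genes filled. The called genes number 0 in the duodenum, 5 in the jejunum, 1 in the ileum, 6 in liver, 14 in WAT and 0 in muscle.

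The genes whose values were most like those of Cubn over the 24 intestinal libraries were ranked by Pearson's r of log2(CPM + 1) among 10449 genes. The libraries share their segment and surgery, which set most of the range, and the tables were normalized separately, so r is a description. The 5 genes were Lipe (0.932), the hormone-sensitive lipase, Cyp4v3 (0.926), a fatty acid hydroxylase, Unc93a (0.914), Aqp1 (0.911), a water channel, and Slc5a12 (0.903), a sodium-coupled lactate transporter. Amn was at r = 0.819 (rank 63) and Tcn2 at r = 0.675 (rank 373). Aqp1 had means of 4.6 CPM in the RYGB group and 157 CPM in the sham group of the jejunum, and Slc5a12 had 17.4 and 348 CPM. In the ileum the means were 83.7 and 337 CPM for Aqp1 and 155 and 453 CPM for Slc5a12. For the others, the jejunal means were 90.7 and 194.82 CPM (Lipe), 614 and 1631 CPM (Cyp4v3) and 7.47 and 24.65 CPM (Unc93a). Their ileal means were 184 and 246 CPM, 1202 and 1791 CPM, and 33.56 and 30.36 CPM, so Unc93a was not lower there. The genes were picked over these same libraries, which favoured such differences in advance.

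Within groups, where the mean of each segment and surgery group was removed, the genes that deviated most like Cubn were Unc93a (0.899), Guca2a (0.874), the guanylin precursor, Rdh9 (0.868), Fam118a (0.854) and Unc93a2 (0.852). Amn was at r = 0.616 (rank 151) and Tcn2 at r = 0.506 (rank 329). Sham replicate 4 of the duodenum weighed on these values, since without it Unc93a was at 0.835, Guca2a at 0.811, Amn at 0.495 and Tcn2 at 0.297.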

How the data were processed

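The tables of 6 tissues from mice 9 days after RYGB or sham surgery were used. Per the labels, the authors made stranded mRNA libraries, and the submitters' processing notes name HTSeq and GRCm38, while the aligner is not given in the sources used here. The deposited values are CPM rounded by the authors to 0.1, with no counts, so library depth is unknown and no interval from counts was computed. Some deposited columns, which hold the same CPM, were recorded as another unit because repeated or broken lines break its limits. Repeated lines of a gene were identical and were used once, and 12 incomplete lines of liver were left out. No per-sample column was left unused (0 columns).

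The RYGB and sham groups of a tissue were compared by limma 3.58.1 (R 4.3.3, empirical Bayes with a trend) on log2(CPM + 1), after genes with a mean under 1 CPM had been left out, with Benjamini-Hochberg adjustment over all genes tested. Fold changes are on this scale, which understates those of low genes. A gene that met the listing limit only through 1 group was more likely to be called higher in that group. A call needed an adjusted p under 0.05 and a fold change of at least 1.5. Other steps ran in Python 3.11.15 with pandas 2.3.3 and numpy 2.4.6. The limma step was tested on simulated data. Groups came from the labels. The 6 genes were described in every tissue where they were listed. From the pathway lists, the text names up to 5 called genes with the largest rise and up to 5 with the largest fall in each intestinal segment, and up to 3 each in the other tissues, and 5 genes most like Cubn by each measure. Cell type markers are given as counts and sums (2 genes of these lists were left out of both and are not reported here), with examples, position markers, and genes called under an alternative named after their values were seen. The genes and lists were chosen with earlier results of these data known. Replicate numbers were not used to pair the libraries in the main fit, because the labels do not say what a number marks. Deviations of same-numbered RYGB and sham libraries of a tissue correlated between -0.281 and 0.389, and in no tissue were all above 0.1. Such correlations cannot exclude a shared litter or day. The alternatives were a pseudocount of 0.1, no minimum or a mean of at least 10 CPM, scaling by median ratios, a replicate block, the lane as a covariate, and leaving out each library. Promoters were RefSeq windows of GRCm38.p6.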

Additional observations from a re-analysis of the deposited data

Results flagged for a closer look

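Within groups of at least 4 libraries, the highest or lowest library of each listed gene was compared with the rest by Dixon's criterion on log2(CPM + 1). Of 34 groups 3 were picked out, where chance gives about 1.7. Cd320 in WAT of the RYGB group was at 8.5 CPM in replicate 4 and next lowest at 15.2 CPM, a gap of 0.89 of the range. Cd320 in WAT of the sham group was at 16.3 CPM in replicate 1 and next at 12.4 CPM, a gap of 0.894 of the range. Tcn2 in muscle of the sham group was at 18.3 CPM in replicate 3 and next at 12.9 CPM, a gap of 0.831 of the range.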

How the results depend on the processing

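Of 270 alternative values of the 6 genes, 260 kept their direction and side of the threshold or, where untested, moved by less than 1 SD. For an untested intestinal value, leaving out 1 library cannot move the difference by 1 SD at these group sizes. That part of the count could not fail and is no sign of stability. For Cubn, leaving out each library gave log2 differences of 0.68 to 2.58 in the duodenum, -6.58 to -5.23 in the jejunum and -1.29 to -1.02 in the ileum. The replicate block gave 2.58, -5.84 and -1.16, and Dab2 in WAT stayed at -1.22 with it. Differences near 0 changed sign for Tcn2 in liver with scaling (-0.06), for Cd320 in WAT with scaling (-0.07) and lane (-0.08), and for Cd320 in muscle with lane (0.18). Leaving out libraries, Cd320 ranged from -0.04 to 0.22 in liver and -0.04 to 0.24 in WAT, and the members called in WAT from 1 to 2. Pathway genes called numbered 0 to 1 in the duodenum, 3 to 7 in the jejunum, 0 to 2 in the ileum, 4 to 7 in liver and 11 to 15 in WAT without single libraries. With lane as a covariate 3 were called in the jejunum. In the ileum 0 were called at a mean of at least 10 CPM and 0 with the replicate block, and 3 with scaling (Mtr, Ctsz and Rab11a). In muscle 1 was called with the block (Lpl, 1.70). The block also lost Myo6 in the jejunum (adjusted p = 0.0829) and Mtr in the ileum (adjusted p = 0.0958), and scaling lost Lgmn in liver (adjusted p = 0.0571). The block leaves out sham replicate 4 of the duodenum and jejunum, which has no partner, and the lane term of the jejunum leaves RYGB replicate 2, alone on its lane, without weight in the difference. Over all genes, the calls went from 1 to 303 in the duodenum with the block (757 without sham replicate 4 alone), from 1058 to 469 in the jejunum with lane (462 without RYGB replicate 2 alone), and from 0 to 184 in muscle with the block. With a mean of at least 10 CPM they went to 664 in the jejunum, 333 in the ileum (from 650), 458 in liver (from 836) and 3 in muscle, which had 2 with scaling. Without single libraries they ranged from 0 to 757, 462 to 1015, 312 to 766, 329 to 1204, 2460 to 3765 and 0 to 210 in the duodenum, jejunum, ileum, liver, WAT and muscle. Fewer genes were tested at the higher minimum. For the other changes the cause was not tested.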
